A study of Xenopus tropicalis with 9 samples.

Results

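Tails of metamorphosing tadpoles of the frog Xenopus tropicalis were compared whole and with the notochord taken out, both at stage 63, when the tail is being resorbed. The comparison takes 6 of the 9 RNA-seq libraries of the series, 3 of whole tail and 3 of notochord-removed tail, chosen by their labels and not by any measured value. The other 3 libraries are whole tails of stage 60 and enter only 1 alternative fit. All animals were wild type, per the series title, and no agent or transgene is named for either group. The labels do not say how the notochord was taken out, how many animals went into a library, or whether whole tails were handled the same way. Loss of the notochord and the handling that its removal took therefore cannot be told apart.

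The notochord is a stiff rod of large vacuolated cells inside a thick collagenous sheath, and it is the main axial support of the tadpole tail. The T-box factor brachyury specifies it, and its cells share matrix genes with cartilage. During metamorphosis thyroid hormone, acting through its nuclear receptors, switches on proteases and cell death programmes in the tail, and the notochord is among the last of the tail tissues to be lost. A whole-tail library holds RNA of notochord, muscle, skin, nerve cord, vessels and blood cells together. The comparison shows which transcripts differed in level between the groups, and not which tissue they came from.

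Depth was even. Whole-tail libraries held 29033194 to 34836531 counts and notochord-removed libraries 29074984 to 32862951, over 19921 genes of the count table. Levels are given below as CPM, the counts of a gene relative to the library total after TMM scaling, whose factors were 0.969 to 1.01 in whole tail and 1.01 to 1.02 in notochord-removed tail. Rank correlations over genes were 0.994 to 0.998 within groups and 0.986 to 0.991 between them. Replicate 3 of notochord-removed tail stood apart from its group: its median absolute log2 distance over genes was 0.153 and 0.169 to the others, against 0.0801 between those. The labels do not state that replicates are different animals. Each p-value therefore refers to the variation among these 6 libraries, part or all of which may be technical.

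Of 14001 genes that passed the filter on low counts, 1345 (9.61%) were higher and 1802 (12.9%) lower in whole tail than in notochord-removed tail. The test was edgeR's quasi-likelihood test, with a Benjamini-Hochberg adjusted p under 0.05 over all 14001 genes. A log2 difference is whole minus notochord-removed throughout, so a positive value means higher in whole tail, and each is given ± its standard error (SE). With library totals alone as scaling the split was 1020 higher and 2105 lower. The count of higher genes was 1841 without notochord-removed replicate 3, 759 without notochord-removed replicate 2, and 792, 617 and 867 without whole-tail replicates 1, 2 and 3. The count of lower genes was 2436 without notochord-removed replicate 3 and 1060 without whole-tail replicate 2.

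Large differences were few. At least 2-fold, whole tail had 142 higher genes (1.01%) and 77 lower genes (0.55%), and leaving out any 1 library kept these counts at 131 to 156 and 72 to 103. With a symbol there were 81 (1.44% of named genes tested) and 26 (0.463%) of them. At least 4-fold, 41 genes were higher and 17 lower. The 142 genes together took 7706, 7540 and 7623 CPM in the whole-tail libraries, against 2677, 2738 and 2968 CPM in the notochord-removed libraries. The 77 genes took 1194, 1185 and 1188 CPM in whole tail, against 3868, 3895 and 3636 CPM in notochord-removed tail. Both sums had to differ, since the genes were chosen by their differences in these libraries. Of the 142 genes, mmp9-th alone took 4198, 4274 and 4552 CPM in whole tail, against 1885, 1938 and 2238 CPM in notochord-removed tail. The median log2 difference over all genes tested was 0.01, and the libraries of the groups did not overlap for 39.9% of genes.

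**Figure D1:**
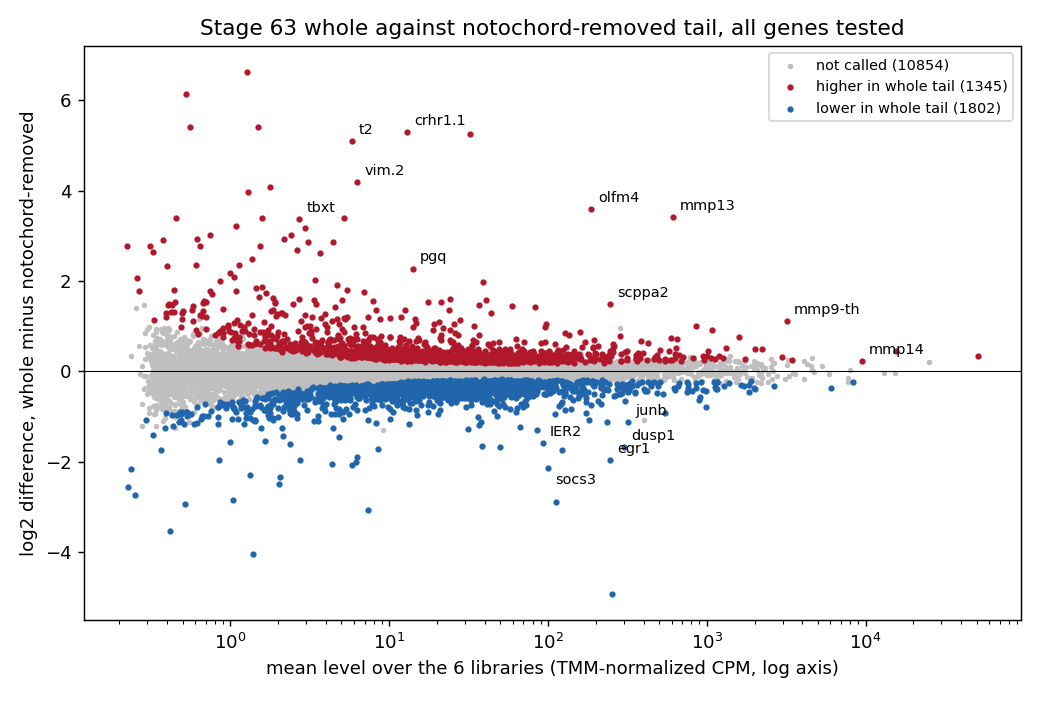
Log2 difference (vertical axis, whole minus notochord-removed) against mean level over the 6 libraries (horizontal axis, TMM-normalized CPM, log scale) for the 14001 genes tested, 1 point a gene, red for the 1345 genes called higher and blue for the 1802 called lower in whole tail. The genes named at the top are brachyury genes, crhr1.1, vim.2, olfm4 and mmp13, and those at the bottom are socs3, egr1, dusp1 and IER2.

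Gene names came only with genes that the authors had selected, which limits what can be named. The authors' deposited tables pair 6462 of the genes with a symbol, and 5617 of these were tested. Most were named because they were higher at stage 63 than at stage 60 in whole tail, with the same stage 63 whole-tail libraries used here, and 31 only because they exceeded a ratio of 2 in the present contrast. Those 31 had to be higher in whole tail to be named. List counts that hold any of them are not independent of the difference. Among the 5617 named genes 737 (13.1%) were higher and 426 (7.58%) lower, with a median log2 difference of 0.06, against -0.03 for the 8384 tested genes with no symbol. The shares of 13.1% and 7.58% are to be set beside every list count below. The authors' deposited table of this contrast lists 936 genes, of which 451 have a mean FPKM of 0 in notochord-removed tail. Of the 936 genes that the authors' deposited table lists, 140 passed the filter on low counts here, and 137 of these were called higher by at least 2-fold. The authors selected them by a ratio above 2 in these same libraries, so that count was largely set in advance.

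The brachyury gene tbxt, which marks the notochord, checked the labels of the groups. tbxt, the brachyury gene itself (ENSXETG00000005370, scaffold GL173068.1, 292769 to 298749), was at 5.09, 5.12 and 4.65 CPM in whole tail, against 0.716, 0.373 and 0.357 CPM in notochord-removed tail. Its log2 difference was 3.36 ± 0.20 (adjusted p = 3.52e-07), and notochord-removed tail kept 9.73% of the whole-tail level. The neighbouring brachyury paralogue t2, at 328396 to 337291 on the same scaffold, was at 12.004, 11.6 and 10.4 CPM in whole tail, against 0.341, 0.373 and 0.268 CPM in notochord-removed tail. It was higher by 5.10 ± 0.16 (adjusted p = 7.51e-10), with 2.89% left. t2 was named only because it exceeded a ratio of 2 in the present contrast, so it is no separate check of the labels. For both genes every whole-tail library lay far above every notochord-removed library. In RNA of a mixed tissue, fewer cells of a type and less RNA per cell cannot be told apart.

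Of 9 tested genes on a list of notochord regulators, 3 were called higher and 1 lower in whole tail, with a median of 0.00. Among the higher ones, foxa2 was named only because it exceeded a ratio of 2 in the present contrast, so its call is no separate check of the labels. foxa2, a forkhead factor of notochord and floor plate, was at 1.15, 1.39 and 0.942 CPM in whole tail, against 0.0682, 0.373 and 0.536 CPM in notochord-removed tail (difference on the log2 scale 1.77 ± 0.39, adjusted p = 0.00692). foxa1, its relative, averaged 8.72 CPM in whole tail and 6.88 CPM in notochord-removed tail, a log2 difference of 0.34 (adjusted p = 0.0246). sox9, the master regulator of cartilage, averaged 7.79 CPM in whole tail and 7.86 CPM in notochord-removed tail (difference on the log2 scale -0.01, adjusted p = 0.951), and the BMP antagonists nog and chrd.1 did not pass. The member that was lower was cdh11, a cadherin of mesenchyme, at 348 ± 7.10 CPM in whole tail and 471 ± 2.36 CPM in notochord-removed tail (SD, n = 3 each). The list held 2 higher members in place of 3 without any 1 whole-tail library or without notochord-removed replicate 1. In those fits tbxt and foxa2 kept their calls, so the call lost was that of foxa1.

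Matrix genes of notochord and cartilage held 4 differences of at least 2-fold among many that did not pass. Of 13 tested members 5 were called higher and 1 lower in whole tail, and the median was 0.01. Among the higher ones, chad, COL9A1 and cnmd were named only because they exceeded a ratio of 2 in the present contrast. The lower call was lost without notochord-removed replicate 1 or 2 or whole-tail replicate 2 or 3. chad, which encodes the cartilage matrix protein chondroadherin, had 103 counts over the whole-tail libraries and 2 over the notochord-removed libraries, a ratio of 49.6 with a 95% counting interval of 13.4 to 415. COL9A1, a chain of the collagen that coats cartilage fibrils, was at 5.09, 5.05 and 6.05 CPM in whole tail, against 0.853, 0.678 and 0.685 CPM in notochord-removed tail (2.87 ± 0.16, adjusted p = 2.15e-07). col8a1, a short-chain collagen, was higher by 1.62 ± 0.16 and cnmd, which encodes the cartilage and tendon glycoprotein chondromodulin, by 1.20 ± 0.11. By contrast prelp, a leucine-rich matrix proteoglycan, averaged 161 CPM in each group, and cilp, an intermediate-layer protein of cartilage, averaged 204 CPM in whole tail and 215 CPM in notochord-removed tail (difference on the log2 scale -0.07, adjusted p = 0.47). Neither col2a1 nor shh, a further pair of notochord genes, carried a symbol in the tables, so neither can be identified here.

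Intermediate filament genes, which give notochord, muscle and epithelial cells their inner scaffold, included several large differences. Of 8 tested members 4 were called higher and none lower in whole tail, with a median of 0.67, and the 4 kept their calls without any 1 library. All 4 were named only because they exceeded a ratio of 2 in the present contrast. The count and the median are therefore not independent of the difference. vim.2, a vimentin gene, was at 12.1, 11.1 and 12.7 CPM in whole tail, against 0.409, 0.441 and 1.07 CPM in notochord-removed tail (4.18 ± 0.21, adjusted p = 8.63e-08). des.2, a desmin gene, was at 5.30, 5.23 and 5.45 CPM in whole tail, against 0.409, 0.136 and 1.16 CPM in notochord-removed tail (3.16 ± 0.34, adjusted p = 0.000186). In both genes replicate 3 of notochord-removed tail was the highest of its group, and without it the log2 differences were 4.79 and 4.26. krt8, a keratin of simple epithelia and notochord, was at 128, 134 and 131 CPM in whole tail and at 55.3, 59.9 and 74.5 CPM in notochord-removed tail (1.05 ± 0.10). krt18l, named for its likeness to the partner keratin of krt8, was higher by 1.70 ± 0.31, whereas the nuclear lamin genes lmna and lmnb2 did not pass, at 0.13 and 0.29.

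The strongest named differences outside these structural groups lay in genes with no textbook role in the notochord. crhr1.1, a receptor for corticotropin-releasing hormone, was at 27.1, 24.2 and 24.1 CPM in whole tail, against 0.648, 0.780 and 0.506 CPM in notochord-removed tail. Its log2 difference of 5.29 ± 0.13 (adjusted p = 1.23e-10) left 2.57% in notochord-removed tail, less than the share left of tbxt. olfm4, which encodes the secreted glycoprotein olfactomedin 4, was at 379, 341 and 321 CPM in whole tail, against 31.5, 31.6 and 23.0 CPM in notochord-removed tail (3.60 ± 0.12, adjusted p = 1.70e-09). In neither gene did the groups come near each other, but crhr1.1 was named only because it exceeded a ratio of 2 in the present contrast.

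**Figure D2:**
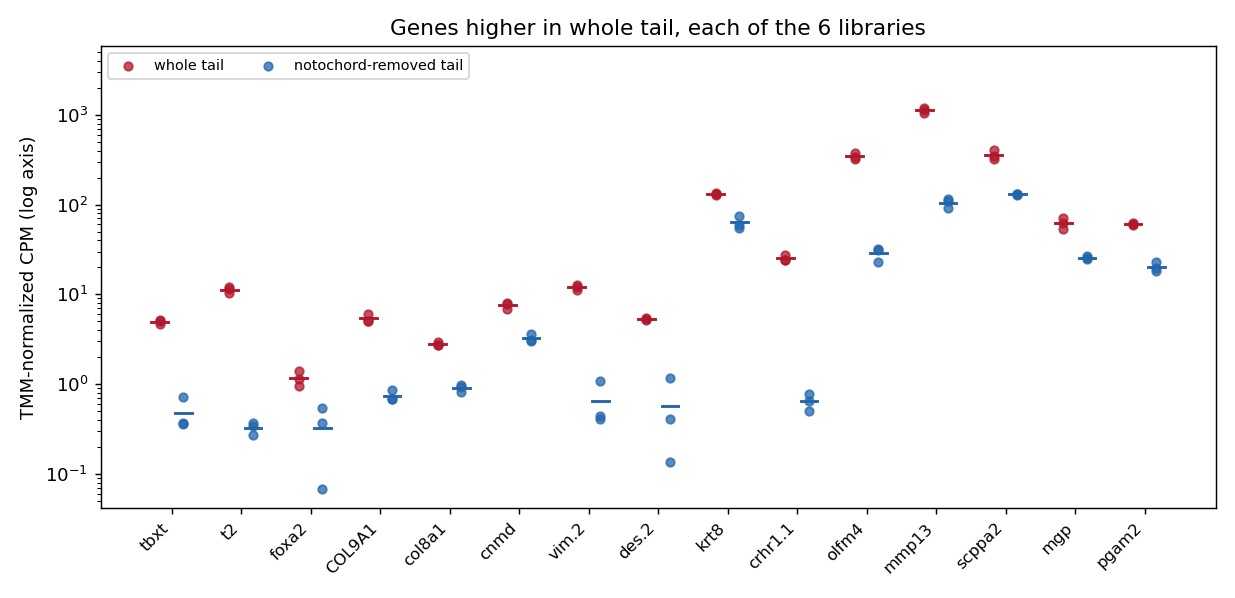
Level of 15 genes (vertical axis, TMM-normalized CPM, log scale) in each of the 3 whole-tail libraries (red, left of each pair) and the 3 notochord-removed libraries (blue, right), 1 point a library, with a bar at each group's mean. The groups do not overlap for any of these genes, as for 39.9% of all genes tested, and some of those shown were picked by a rule that required it. The spread among notochord-removed libraries is widest for foxa2, vim.2 and des.2, which are at or below about 1 CPM there.

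Of the 32 gene lists, that of proteases which degrade collagen and other matrix had the largest summed level. The 37 tested metalloproteinases and relatives together took 32303, 31061 and 30366 CPM in whole tail, against 24998, 24710 and 23670 CPM in notochord-removed tail. Of these genes 12 were called higher and 1 lower in whole tail, with a median of 0.12, and leaving out any 1 library gave 9 to 14 higher. mmp13, a fibrillar collagenase (ENSXETG00000022190, scaffold GL172755.1, 405836 to 412944), was at 1197, 1117 and 1041 CPM in whole tail, against 114, 110 and 90.6 CPM in notochord-removed tail. It was higher by 3.41 ± 0.10 (adjusted p = 7.16e-10). Its share left in notochord-removed tail was 9.38%, beside 9.73% for tbxt, 2.89% for t2, 13.7% for COL9A1 and 48.2% for krt8. mmp13l, a paralogue on the same scaffold, was at 2149, 1959 and 1899 CPM in whole tail and at 1236, 1220 and 1100 CPM in notochord-removed tail (0.76 ± 0.08, adjusted p = 5.93e-05). The paralogue thus kept 59.2% of its level when the notochord was taken out.

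The gelatinase genes also formed a pair of unequal differences. mmp9-th, a Xenopus gelatinase known in X. laevis as a direct thyroid hormone target, was at 4198, 4274 and 4552 CPM in whole tail and at 1885, 1938 and 2238 CPM in notochord-removed tail (1.104 ± 0.09, adjusted p = 4.00e-06). mmp9, its neighbour on scaffold GL172665.1, was at 563, 498 and 483 CPM in whole tail and at 356, 353 and 294 CPM in notochord-removed tail (0.62 ± 0.09). Per kilobase of gene length, mmp9-th averaged 2219 CPM in whole tail and 1033 CPM in notochord-removed tail, and mmp9 averaged 187 CPM in whole tail and 122 CPM in notochord-removed tail. Paralogues such as these can share reads, and their values are uncertain to that extent.

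The other called proteases were less abundant or differed by less. mmp3, a stromelysin, was higher by 0.56 ± 0.08, mmp8, the neutrophil collagenase in mammals, by 0.48 ± 0.08, and FAP, a serine protease of activated fibroblasts on the same list, by 0.52 ± 0.07. adamts14, which trims procollagen ends, was higher by 1.08 ± 0.16 at a low level, while its relative adamts2 was the lower member at -0.24. No member was lower without notochord-removed replicate 1 or 2 or whole-tail replicate 2 or 3, and 2 were without notochord-removed replicate 3. mmp14, the membrane collagenase that activates mmp2, was at 10576, 10109 and 9961 CPM in whole tail and at 8890, 8849 and 8447 CPM in notochord-removed tail. Its difference of 0.23 ± 0.07 passed narrowly (adjusted p = 0.0465), and it did not pass without any 1 of the 6 libraries (adjusted p of 0.0662 to 0.143).

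The protease with the highest level per kilobase of those named, mmp2, a gelatinase, did not pass. It was at 8618, 8090 and 7466 CPM in whole tail and at 8396, 8062 and 7259 CPM in notochord-removed tail, overlapping groups with a log2 difference of 0.03 ± 0.09 (adjusted p = 0.851). mmp11, stromelysin 3, a thyroid hormone target of resorbing tail known from X. laevis, averaged 826 ± 8.59 CPM in whole tail and 728 ± 22.01 CPM in notochord-removed tail (SD, n = 3 each) without passing in edgeR's test (0.18 ± 0.07, adjusted p = 0.0740). The groups did not overlap, DESeq2 called it higher, and its adjusted p ranged from 0.0137 to 0.241 over the alternatives. timp2, which encodes an inhibitor of these enzymes, was at 0.17 ± 0.09 with overlapping groups (adjusted p = 0.185). Of 10 tested protease inhibitors 2 were higher, serpine2 by 0.41 ± 0.07 and spint2 by 0.37 ± 0.11. The call of spint2 was lost without any 1 whole-tail library, which left the inhibitor list with 1 higher member. None of the 10 was lower, but 2 were without notochord-removed replicate 3 and 1 without notochord-removed replicate 1.

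**Figure D3:**
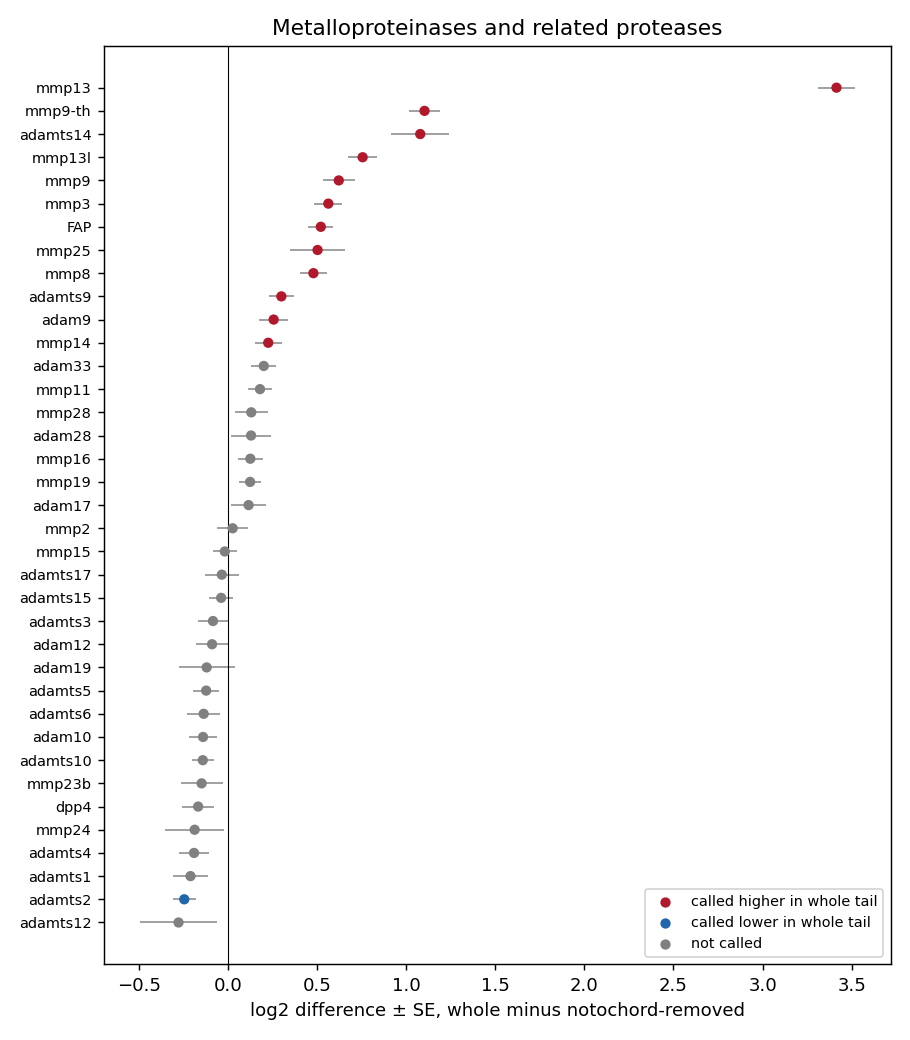
Log2 difference (horizontal axis, whole minus notochord-removed) of the 37 tested metalloproteinases and relatives, 1 row a gene, with bars of ± SE, red for the 12 called higher in whole tail, blue for the 1 called lower and grey for the rest. mmp13 stands at 3.41, away from the next genes mmp9-th and adamts14 near 1.1, and mmp2 lies at 0.03.

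Mineralization genes, which control where matrix calcifies, included some of the more abundant genes that differed. Of 16 tested members of the osteoclast and mineralization list 6 were called higher and none lower in whole tail, with a median of 0.19, and 1 was lower without notochord-removed replicate 3. scppa2, a member of the secretory calcium-binding phosphoprotein family, was at 408, 352 and 323 CPM in whole tail, against 127, 132 and 130 CPM in notochord-removed tail (1.48 ± 0.09, adjusted p = 3.26e-07). mgp, which encodes a matrix protein that holds back calcification, was at 71.0, 61.9 and 52.8 CPM in whole tail, against 25.2, 26.8 and 24.5 CPM in notochord-removed tail (1.28 ± 0.10). The symbol of mgp came only with its ratio above 2 in the present contrast. nt5e, an ectonucleotidase that frees adenosine, was higher by 0.97 ± 0.11, and runx2, the osteoblast master regulator, by 0.26. Of 46 tested lysosome genes 8 were higher and none lower, where 13.1% of all named genes were higher and 7.58% lower, with tfeb, the master regulator of lysosome genes, the one with the smallest p (0.49 ± 0.08). That lysosome count fell to 1 without whole-tail replicate 2, and was 3, 4, 5 and 5 without notochord-removed replicate 2, whole-tail replicates 1 and 3 and notochord-removed replicate 1. It was 11, beside 5 lower genes, without notochord-removed replicate 3.

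Oxidase genes make reactive oxygen species, which serve defence and signalling. Of 24 tested NADPH oxidase and redox genes 12 were called higher and none lower in whole tail, with a median of 0.23. nox1, a superoxide-producing oxidase, was at 30.2, 27.2 and 29.2 CPM in whole tail, against 16.3, 16.7 and 11.9 CPM in notochord-removed tail (0.95 ± 0.11, adjusted p = 0.000112). noxo1.1, which encodes its organizer subunit, was at 34.4, 32.5 and 35.1 CPM in whole tail, against 15.04, 14.04 and 10.96 CPM in notochord-removed tail (1.35 ± 0.10). duox2, a peroxide-producing dual oxidase, was higher by 1.87 ± 0.18. The count of higher members was 6 without whole-tail replicate 2, but nox1, noxo1.1 and duox2 kept their calls without any 1 library. With notochord-removed replicate 3 left out 1 member was lower.

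Arginine metabolism gave a small group of differences, 2 of them of at least 2-fold. The summed level of its genes overlapped between the groups, at 228 to 233 CPM in whole tail and 218 to 235 CPM in notochord-removed tail. Of 6 tested members 4 were called higher and 1 lower in whole tail, with a median of 0.51. Leaving out any 1 library gave 3 higher, and arg1, ass1 and nos2 kept their calls. arg1, arginase, was at 10.8, 10.2 and 10.02 CPM in whole tail, against 4.57, 4.71 and 4.20 CPM in notochord-removed tail (1.20 ± 0.09, adjusted p = 3.91e-06). ass1, which makes the arginine precursor argininosuccinate, was at 33.4, 33.4 and 36.8 CPM in whole tail and at 15.96, 16.7 and 17.6 CPM in notochord-removed tail (1.05 ± 0.07). nos2, the inducible nitric oxide synthase that uses arginine, was higher by 0.71 ± 0.13, and slc7a3, a cationic amino acid transporter, was lower at -0.23, a call lost without notochord-removed replicate 1 or 2 or whole-tail replicate 2. Among hypoxia and glycolysis genes 3 of 13 were higher and 1 lower, led by cox4i2, an oxygen-sensitive subunit of cytochrome oxidase (1.08 ± 0.10), and by hk2, a hexokinase (0.62 ± 0.09). Without notochord-removed replicate 3 the hypoxia list held 6 higher and 2 lower members.

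Thyroid hormone genes were called at shares near those of all named genes. Of 21 tested members 3 were called higher and 1 lower in whole tail, where 13.1% and 7.58% of all named genes were. The member furthest above 0 was znf395, at a mean of 12.3 CPM in whole tail and 9.33 CPM in notochord-removed tail (0.39 ± 0.08, adjusted p = 0.0033). thrb, the thyroid hormone receptor that the hormone itself induces, was at 43.7, 41.8 and 43.2 CPM in whole tail and at 44.0, 42.0 and 38.9 CPM in notochord-removed tail, with overlapping groups (0.04 ± 0.07, adjusted p = 0.670). klf9, a direct target, averaged 54.3 ± 1.21 CPM in whole tail and 51.3 ± 1.05 CPM in notochord-removed tail (SD, n = 3 each; 0.08 ± 0.06, adjusted p = 0.344), and thibz, another target, was at -0.18 ± 0.07 (adjusted p = 0.0805). crym, which encodes a thyroid hormone binding protein of the cytosol, was the lower member at 64.4, 64.5 and 62.9 CPM in whole tail, against 86.7, 91.5 and 84.2 CPM in notochord-removed tail (-0.45 ± 0.06, adjusted p = 0.000401). thibz passed as lower without notochord-removed replicate 3 (adjusted p = 0.0110) and with library totals alone as scaling. Without that replicate 6 members were higher, and 1 was higher without whole-tail replicate 1.

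In the other direction, many immediate early genes were lower in whole tail. These are genes that cells switch on within minutes of a stimulus, without new protein. Of 23 tested members 12 were lower and none higher in whole tail, with a median of -0.22, and leaving out any 1 library gave 10 to 14 lower. egr1, a zinc-finger factor, was at 92.9, 99.9 and 105 CPM in whole tail, against 384, 392 and 393 CPM in notochord-removed tail (-1.97 ± 0.07, adjusted p = 3.33e-09). Its relative egr2 was at 2.85, 2.40 and 2.77 CPM in whole tail, against 9.48, 8.82 and 11.5 CPM in notochord-removed tail (-1.89 ± 0.13). For both, the lowest notochord-removed library was more than 3 times the highest whole-tail library.

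Genes of the AP-1 factors, part of the same list, showed the same sign. fosl1 was at 1.61, 1.71 and 1.74 CPM in whole tail, against 7.03, 7.50 and 6.46 CPM in notochord-removed tail (-2.05 ± 0.12, adjusted p = 3.02e-07). The jun genes, whose products pair with fos proteins, were lower too, with junb at -1.12 ± 0.07, jun at -1.09 ± 0.08 and jund at -0.72 ± 0.08. IER2, a nuclear immediate early protein, was at 47.6, 44.5 and 46.3 CPM in whole tail, against 136, 147 and 135 CPM in notochord-removed tail (-1.59 ± 0.07). klf2, a factor that responds to blood flow in endothelium, was at -1.02 ± 0.07, csrnp1 at -0.95 ± 0.12 and atf3, a stress-induced factor, at -0.51 ± 0.09. fos itself carried no symbol in the tables and cannot be identified here.

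Genes that shut such signals off, or that follow them, included many that were lower in whole tail too. Of 31 tested stress, feedback and prostaglandin genes 11 were lower and 3 higher, with a median of -0.06, and leaving out any 1 library gave 9 to 12 lower. socs3 (ENSXETG00000024632), a feedback inhibitor of cytokine receptors, was at 36.5, 36.3 and 38.8 CPM in whole tail, against 160, 163 and 166 CPM in notochord-removed tail (-2.13 ± 0.07, adjusted p = 7.38e-10). A different identifier that also carries the symbol socs3, ENSXETG00000024882, did not pass, at 54.7, 51.5 and 57.3 CPM in whole tail and 52.0, 52.8 and 52.8 CPM in notochord-removed tail (0.05 ± 0.06, adjusted p = 0.593). dusp1, a phosphatase that turns off MAP kinases, was at 140, 148 and 142 CPM in whole tail, against 485, 475 and 423 CPM in notochord-removed tail (-1.69 ± 0.08). ptgs2, the inducible cyclooxygenase of prostaglandin synthesis, was at 50.7, 49.3 and 47.7 CPM in whole tail, against 132, 129 and 106 CPM in notochord-removed tail (-1.31 ± 0.09).

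Smaller differences of the same sign were found for zfp36, which speeds decay of inflammatory mRNAs (-0.94 ± 0.07), dusp5 (-0.69 ± 0.06) and spry1, an inhibitor of growth factor receptors (-0.58 ± 0.09). The heat shock genes hsp70 and hspa1b were lower at -1.17 ± 0.10 and -0.86 ± 0.10. tnip2, which encodes a binding partner of the NF-kappaB inhibitor A20, was at -1.19 ± 0.07. The members that went the other way were ctgf, a matricellular growth factor and a gene known to be strongly expressed in notochord (207 CPM in whole tail and 132 CPM in notochord-removed tail, 0.65), ptger4, a prostaglandin receptor (0.50), and hmox1, heme oxygenase (0.44).

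**Figure D4:**
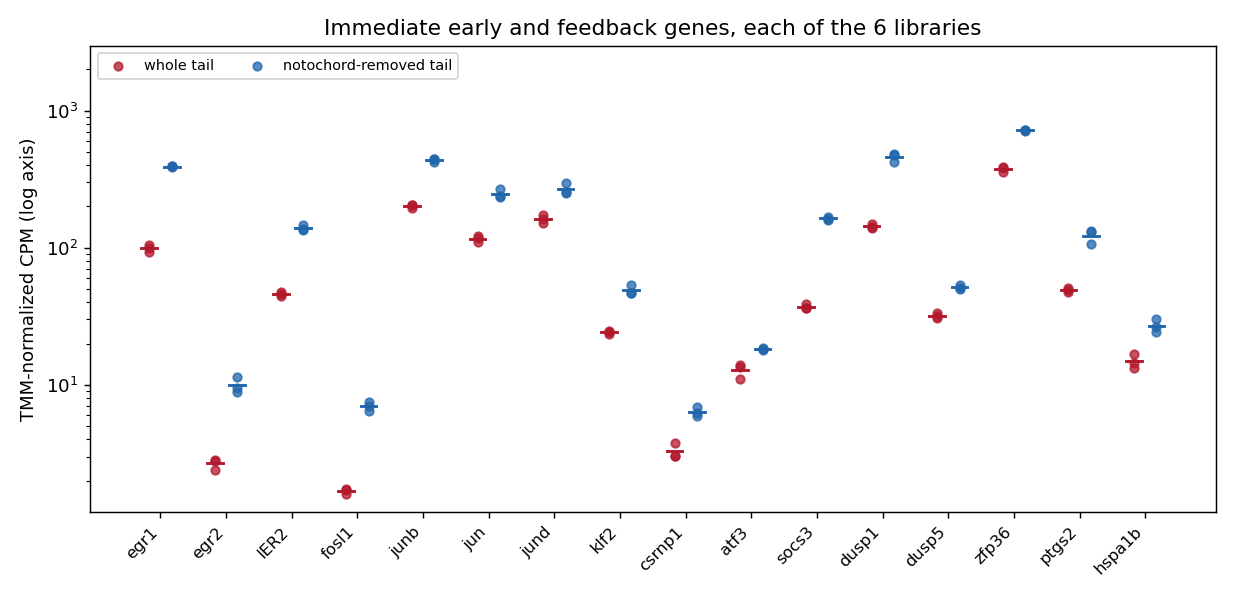
Level of 16 immediate early, feedback and stress genes (vertical axis, TMM-normalized CPM, log scale) in each of the 3 whole-tail libraries (red, left) and 3 notochord-removed libraries (blue, right), 1 point a library, with a bar at each group's mean. Every gene shown is lower in whole tail with no overlap, from atf3 at -0.51 to socs3 at -2.13 on the log2 scale. Some were picked by a rule that required no overlap, which held for 39.9% of all genes tested.

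Markers of other tail tissues were measured beside these groups. Of 38 tested macrophage and leukocyte markers 13 were called higher and 1 lower in whole tail, with a median of 0.18, yet their summed level was 6685 to 6813 CPM in whole tail and 6705 to 6837 CPM in notochord-removed tail. mpo, the myeloperoxidase of neutrophil granules, was at 218, 200 and 201 CPM in whole tail, against 118, 119 and 101 CPM in notochord-removed tail (0.87 ± 0.08, adjusted p = 1.41e-05). itgb2, a leukocyte integrin chain, and spi1, a myeloid master regulator, were higher by 0.42 ± 0.06 and 0.34 ± 0.06, and mrc1, the macrophage mannose receptor, was lower at -0.34. The count of 13 was 8 without whole-tail replicate 2. Lower members numbered 5, beside 16 higher, without notochord-removed replicate 3, and 2 without whole-tail replicate 1. Cytokine and chemokine genes gave 13 higher and 4 lower of 40, with a median of 0.13, among them il1b, an inflammatory cytokine (0.46), higher, and lif, a cytokine of the interleukin 6 family (-0.73 ± 0.16), and tgfb1 (-0.49 ± 0.09), lower. Without whole-tail replicate 2 the cytokine counts were 8 higher and 2 lower. The part of the leukocyte markers in the protease, oxidase and cytokine results was not tested.

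Vessel genes that passed were mostly lower in whole tail. Of 38 tested endothelium and vessel genes 11 were lower and 1 higher in whole tail, with a median of -0.12, while 26 did not pass. The summed level was 2182.1 to 2248 CPM in whole tail and 2168 to 2357 CPM in notochord-removed tail, so the groups overlapped in it. tek, the angiopoietin receptor, was at 23.1, 20.03 and 20.5 CPM in whole tail, against 31.7, 30.9 and 35.02 CPM in notochord-removed tail (-0.62 ± 0.08, adjusted p = 0.000222). kdr, the main receptor for vascular endothelial growth factor, was at -0.42 ± 0.08, cdh5, the cadherin of endothelial junctions, at -0.35 ± 0.07, and apln, a peptide of growing vessels, at -0.58 ± 0.10. The higher member was tagln, a marker of smooth muscle, at 360 ± 18.5 CPM in whole tail and 211 ± 13.9 CPM in notochord-removed tail (SD, n = 3 each), and 3 members were higher without notochord-removed replicate 3. The part of the endothelial markers in the immediate early result was not tested.

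Only 3 named genes of the skeletal muscle list were tested, since most of its 57 genes carry no symbol in the tables. The desmin gene des.2, given above with the intermediate filaments, was not on that list. Of the 3, pgam2 and myl3 were named only because they exceeded a ratio of 2 in the present contrast, and pygm was not. pgam2, the muscle form of phosphoglycerate mutase, was at 61.5, 62.7 and 58.6 CPM in whole tail, against 19.7, 18.4 and 22.7 CPM in notochord-removed tail (1.59 ± 0.08, adjusted p = 1.08e-07). pygm, muscle glycogen phosphorylase, was at 30.4, 33.2 and 35.9 CPM in whole tail and at 28.4, 27.7 and 41.2 CPM in notochord-removed tail, with overlapping groups (0.03 ± 0.14, adjusted p = 0.899). It passed as higher without notochord-removed replicate 3 (adjusted p = 0.0230). myl3, a slow muscle and heart myosin light chain, was at 3.29, 4.18 and 4.02 CPM in whole tail and at 1.26, 1.05 and 2.86 CPM in notochord-removed tail (1.12 ± 0.29, adjusted p = 0.0197). Its call was lost without notochord-removed replicate 1 or either of whole-tail replicates 2 and 3, and without notochord-removed replicate 3 its difference was 1.71.

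None of 22 tested genes of spinal cord neurons passed in edgeR's test, with a median of 0.12 and a summed level of 211 to 229 CPM in whole tail and 198 to 211 CPM in notochord-removed tail. At an unadjusted p under 0.05 there were 3 such genes, DESeq2 and limma-voom called 0, and 1 was higher without notochord-removed replicate 3. With the replicate number as a block, a pairing that was not established, 4 were higher. The members nearest to passing were nrcam and dcx, both neuronal adhesion or migration genes, at 0.28 ± 0.11 and 0.63 ± 0.24 (adjusted p = 0.0814 and 0.0836). Among 12 glia and cord lining genes the myelin gene mpz was higher (0.44 ± 0.10, call lost without whole-tail replicate 2) and the myelin gene pmp2 was lower (-0.45 ± 0.07). pmp2 was at 887, 825 and 810 CPM in whole tail, against 1129, 1118 and 1188 CPM in notochord-removed tail. Of 4 tested erythrocyte genes rhag, an ammonium channel of the red cell membrane, was higher by 0.34 ± 0.08, a call lost without whole-tail replicate 2. The glia list held 2 higher members without notochord-removed replicate 2 and 2 lower ones without notochord-removed replicate 3, where the erythrocyte list held 2 higher and 1 lower.

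Skin genes moved in both directions. Of 35 tested epidermis genes 8 were called higher and 6 lower in whole tail, with a median of 0.04. foxi1, a master regulator of ionocytes, and the proton pump subunit genes atp6v1b1 and atp6v0a4 of such cells were higher by 1.33 ± 0.35, 1.36 ± 0.19 and 1.24 ± 0.29, all at means under 3 CPM. These 3 were chosen for naming after their values were seen, and only atp6v1b1 kept its call without whole-tail replicate 2. At least 2-fold, 3 members of the list were called higher and 1 lower, and the member furthest below 0, not named here, was at -1.74. Among the lower genes were also tgm3.1, a transglutaminase of the cornified layer (-0.90 ± 0.11), and the tight junction gene cldn4 (-0.41). Outside the list, cldn6.1 and cldn6.2, neighbouring tight junction genes on scaffold GL173464.1, were at -1.24 ± 0.09 and -1.11 ± 0.07. cldn6.1 was at 41.8, 39.3 and 37.8 CPM in whole tail, against 98.1, 101 and 81.4 CPM in notochord-removed tail. Without notochord-removed replicate 3 the epidermis list held 10 lower members. The higher count was 4 and 5 without whole-tail replicates 2 and 1.

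Signalling lists held few calls, to be read beside the 13.1% higher and 7.58% lower of all named genes. In hedgehog signalling 1 of 14 tested genes was higher and 1 lower. ihh, the hedgehog ligand of cartilage, was at 4.75, 3.97 and 4.08 CPM in whole tail, against 2.15, 2.34 and 1.88 CPM in notochord-removed tail (1.01 ± 0.13, adjusted p = 0.000297). hhip, a hedgehog-binding antagonist, was lower at -0.61 ± 0.14, a call lost without whole-tail replicate 2. In Wnt signalling 5 of 37 were lower and none higher, among them the secreted inhibitor wif1 at 125, 131 and 132 CPM in whole tail, against 194, 196 and 172 CPM in notochord-removed tail (-0.53 ± 0.07). In BMP and TGF-beta signalling 5 of 37 were lower and none higher, among them the ligand bmp7.1 (-0.65 ± 0.11). The count of lower Wnt genes was 2 without notochord-removed replicate 2 and 3 without any 1 whole-tail library. Leaving out notochord-removed replicate 3 gave 3 higher hedgehog genes, 3 higher BMP and TGF-beta genes and 1 higher Wnt gene, and leaving out notochord-removed replicate 2 gave 1 higher BMP and TGF-beta gene.

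In Notch signalling 4 of 18 tested genes were lower and 2 higher in whole tail. The target genes hes4 and hes1 were lower at -0.69 ± 0.07 and -0.39 ± 0.07 and the ligand dll1 at -0.43 ± 0.08. rbpj, which encodes the DNA-binding partner of the Notch receptor, was higher at 0.41, and 1 of the 2 higher calls was lost without whole-tail replicate 2. Matrix lists outside the notochord were near balance. Fibrillar collagen and fibroblast matrix gave 3 higher and 3 lower of 37, with a median of 0.03, and basement membrane 1 higher and 3 lower of 20, with a median of -0.06. Without notochord-removed replicate 3 the collagen list held 10 higher members, and without notochord-removed replicate 1 or 2 or whole-tail replicate 2 or 3 it held 1. mfap4, a microfibril protein, was the collagen-list member furthest below 0 (-0.51 ± 0.08), and lamb1, a laminin chain, was the lowest of the called basement membrane genes (-0.41 ± 0.10). The basement membrane list held 4 higher members without notochord-removed replicate 3 and none without notochord-removed replicate 1 or 2 or whole-tail replicate 2 or 3. Without whole-tail replicate 2 it held 1 lower member, and lamb1 lost its call without it or without whole-tail replicate 1.

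**Figure D5:**
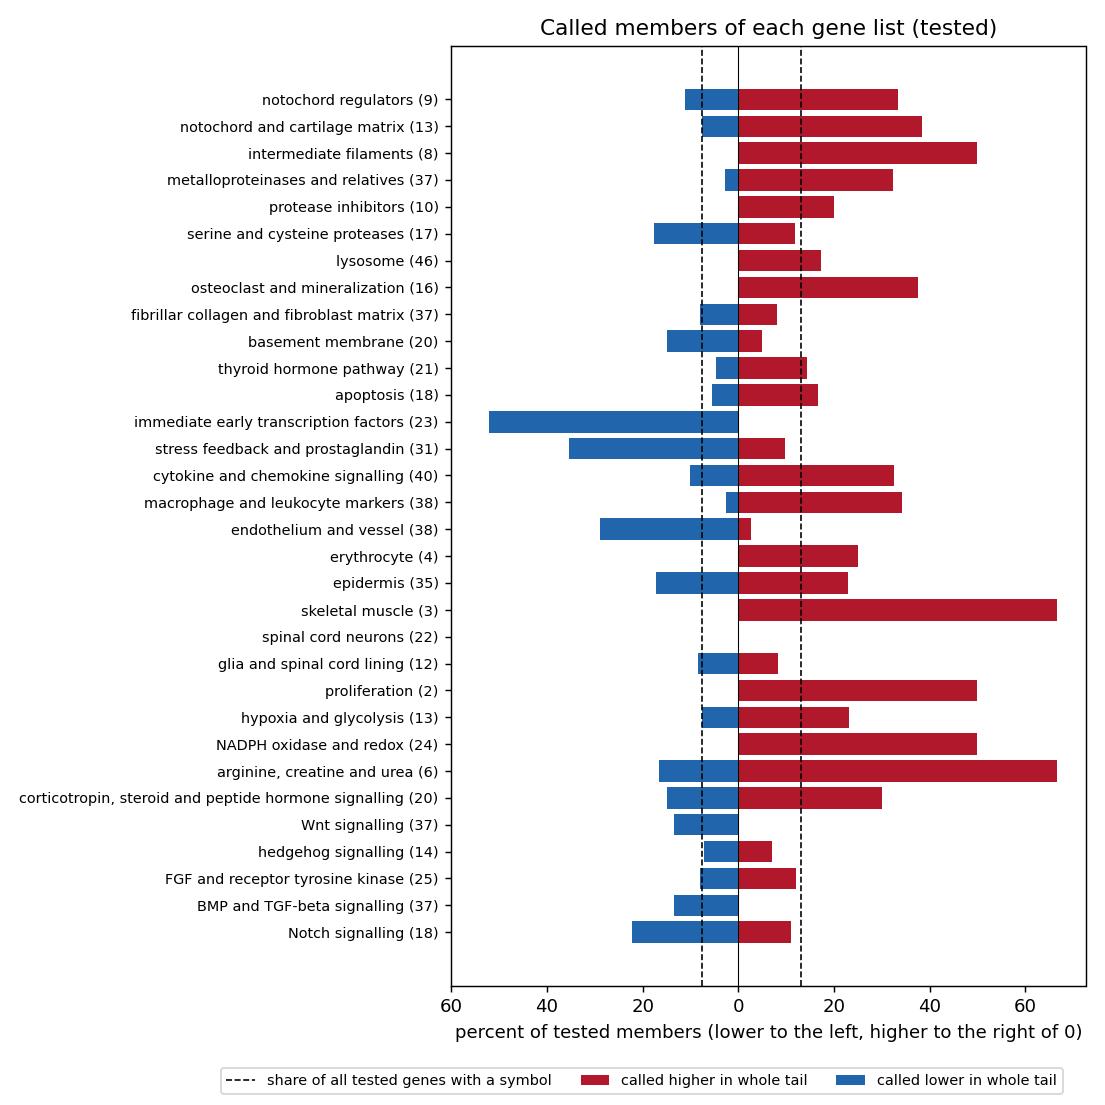
Share of tested members of each of the 32 gene lists called higher (red, right of 0) or lower (blue, left of 0) in whole tail, in percent (horizontal axis), with the number of tested members beside each list name. Dashed lines mark 13.1% and 7.58%, the shares of all tested named genes called higher and lower, and immediate early factors reach furthest to the left. Some lists hold genes named only through the present contrast, which had to be higher to be named.

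Counts of the remaining lists moved with single libraries and are to be read beside the 13.1% higher and 7.58% lower of all named genes. Apoptosis gave 3 higher and 1 lower of 18, with bax, a pore-forming death protein, higher by 0.45 ± 0.08. FGF and receptor tyrosine kinase genes gave 3 higher and 2 lower of 25, and serine and cysteine proteases 2 higher and 3 lower of 17. The protease list held 5 higher members without notochord-removed replicate 3, 1 without any other library, and 1 lower member without whole-tail replicate 1 or 2. The hormone signalling list gave 6 higher and 3 lower of 20. Of these, 2 were higher by at least 2-fold, crhr1.1, which had to be higher to be named, and avd. prlr, the prolactin receptor, was higher by 0.24 ± 0.06, a call lost without notochord-removed replicate 2 or either of whole-tail replicates 2 and 3. avd, whose symbol is that of avidin and not of a hormone gene, was also on the list and was higher by 1.42 ± 0.11. The hormone list held 2 higher members without notochord-removed replicate 2 or whole-tail replicate 2 and 3 without whole-tail replicate 1, and 1 lower member without notochord-removed replicate 2 or whole-tail replicate 1 or 3. The FGF list held 1 higher member without notochord-removed replicate 2 or whole-tail replicate 2 or 3, 5 lower members without notochord-removed replicate 3, and 1 lower member without notochord-removed replicate 1 or whole-tail replicate 2 or 3. For apoptosis there was 1 higher member without whole-tail replicate 2, and there were 3 lower members without notochord-removed replicate 3 and 2 without whole-tail replicate 1. Of the proliferation genes only ccnb1, a mitotic cyclin, and top2a, a topoisomerase of dividing cells, carried a symbol. ccnb1 was at 1.12, 1.11 and 1.14 CPM in whole tail, against 0.273, 0.0678 and 0.149 CPM in notochord-removed tail (2.76 ± 0.33), while top2a did not pass (0.22 ± 0.20, adjusted p = 0.471).

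Several of the largest differences belonged to genes with no symbol. ENSXETG00000030183 was at 66.2, 62.6 and 60.5 CPM in whole tail, against 1.77, 1.46 and 1.73 CPM in notochord-removed tail (5.25 ± 0.09, adjusted p = 7.63e-12), and ENSXETG00000025394 was higher by 1.97 ± 0.14. ENSXETG00000013238 was at 17.6, 15.8 and 14.5 CPM in whole tail, against 528, 508 and 429 CPM in notochord-removed tail. Its log2 difference of -4.94 ± 0.11 (adjusted p = 4.84e-11) compares with -2.13 for socs3, the named gene furthest below 0 under the naming rule. ENSXETG00000031753 was lower at -3.07 ± 0.12.

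Calls varied with gene length and level, while medians stayed near 0. In 4 classes of gene length of equal size the median log2 difference was 0.02, 0.01, -0.01 and 0.02 with rising length. Of their genes 19.4%, 21.9%, 26.9% and 21.7% were called, with 341 higher and 341 lower in the shortest class, 329 and 435 in the second, 346 and 595 in the third and 329 and 431 in the longest. In 4 such classes of mean level the medians were 0.00, -0.01, 0.01 and 0.02, and 13.6%, 23.6%, 26.5% and 26.3% of genes were called with rising level. The class of lowest level had 241 higher and 235 lower genes, the second 332 and 493, the third 371 and 556 and the class of highest level 401 and 518.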

How the data were processed

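Per the labels' protocols, an Illumina TruSeq kit was used on total RNA of tails. The submitters' processing notes name STAR 2.5.4a and featureCounts 1.5.2. The genome build and the strand setting are not given in the sources used here, so reads of genes that overlap, antisense ones included, may be mixed. The authors deposited raw counts per Ensembl gene, with scaffold positions and gene lengths, per the file headers. Lists of selected genes deposited by the authors give group means in FPKM and a ratio between group means, per the file headers. They supplied gene symbols, and their values were used only for the counts of listed genes.

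Counts of the 6 libraries were tested with edgeR 4.0.16 (R 4.3.3). Its filterByExpr set the filter on low counts, TMM the scaling and estimateDisp the dispersions, and robust quasi-likelihood fits with group means only gave the test. The script was tested on simulated data. A gene was called at an adjusted p (Benjamini-Hochberg, over 14001 genes) under 0.05, and the biological coefficient of variation was 0.0722. Standard errors were derived from the log2 difference and the test's F value and are approximate. The interval for chad is exact binomial, for counting error alone. By chi-square tests of their counts no 2 libraries agreed within sampling noise, so none was counted as a repeat. Those tests cover counting noise alone, so they cannot tell separate preparations of the same sample from separate samples.

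Named genes were the 10 largest and 10 smallest log2 differences among called genes with a symbol, with a mean of 10 CPM or more in 1 group and no overlap; the 3 members of each list with the smallest p; and a set of 35 genes. For genes with no symbol the 2 at each end were taken. Not all genes picked by these rules are described above, exd1 (1.52 ± 0.08) among them. Further list members were added, and the genes named for ionocytes and neighbours on a scaffold were chosen after their values were seen. The members and the 32 gene lists were chosen with earlier results of these data known. No list was tested as a set. Of the set of 35, tbxt.2, shh, krt18 and fos had no named row and gatm did not pass the filter. Alternatives were other scalings, filters, DESeq2 1.42.0, limma-voom (limma 3.58.1), all 9 libraries, a replicate block, a threshold of 0.01, and each library left out. No sequence is shown, since none was in the files used here.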

Additional observations from a re-analysis of the deposited data

How the results depend on the processing

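The counts of genes at least 2-fold higher or lower stayed within 1.5 times their reported values under all 15 alternatives. The count of genes higher in whole tail was 2446 with the replicate block and 562 at an adjusted p under 0.01, and 617 to 1841 with 1 library left out. The count of lower genes was 2593 with the block, 912 at an adjusted p under 0.01, and 1060 to 2436 with 1 library left out. DESeq2 called 1095 higher and 1513 lower, and the fit on all 9 libraries 1570 and 2043. Whether the replicate numbers pair the samples was not settled. Libraries with the same number deviated from their group means with correlations of 0.218, -0.0206 and 0.257. Those numbered 1 and 3 correlated best with their own number, and those numbered 2 did not. With 3 libraries a group such correlations cannot decide the question. No scaling moved the median of all genes by more than 0.0352 on the log2 scale. Of 154 genes followed individually through the alternatives, 137 were called. Of these, 115 were called under every alternative and 22 lost the call under at least 1, and none of the 137 changed sign. Some further list members given above, such as foxa1, runx2 and ctgf, were not followed in this way. Sign changes occurred among genes that had not passed, and their causes were not tested. With library totals alone pygm was at -0.00571 and mmp2 at -0.00841. With 1 library left out, the range was -0.0883 to 0.230 for pygm, -0.0117 to 0.454 for top2a, -0.0145 to 0.0868 for thrb, -0.00251 to 0.0814 for socs3 (ENSXETG00000024882) and -0.0425 to 0.0729 for mmp2. Genes of few counts, such as chad and foxa2, are limited by depth.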

Other observations

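Genes that differed by at least 2-fold lay beside each other on scaffolds in several places. Of 219 such genes, 34 formed 14 runs of 2 or more neighbouring tested genes that differed in the same direction, 10 runs higher and 4 lower in whole tail. These runs were looked for after the values were seen, and neighbours that are copies of each other can share reads. Some runs hold only very short genes at a few CPM or less. Examples are the higher run at 5258 to 5393 on NC_006839 and the lower run at 586459 to 587589 on GL172934.1. On scaffold GL173447.1 a run of 4 genes holds pgq and xt6l, genes of antimicrobial peptides. pgq was at 24.9, 24.0 and 20.9 CPM in whole tail, against 5.25, 5.46 and 3.81 CPM in notochord-removed tail (difference on the log2 scale 2.27 ± 0.12, adjusted p = 1.80e-07). xt6l was at 10.5, 9.65 and 8.08 CPM in whole tail, against 1.09, 1.19 and 0.447 CPM in notochord-removed tail (3.40 ± 0.22). For both genes every whole-tail library lay above every notochord-removed library, but pgq was picked by a rule that required this. The symbol of pgq came only with its ratio above 2 in the present contrast.

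Genes of antigen processing formed a run of 3 on scaffold GL173674.1. tap1 and tap2 encode the peptide transporter that loads class I molecules, and psmb8 encodes a subunit of the immunoproteasome. tap1 was at 11.04, 10.5 and 10.4 CPM in whole tail, against 3.27, 3.19 and 2.98 CPM in notochord-removed tail (1.76 ± 0.10, adjusted p = 1.96e-07). tap2 was higher by 1.92 ± 0.14 and psmb8 by 1.52 ± 0.08. mhc1a, a class I gene, was at 140, 129 and 133 CPM in whole tail and at 92.8, 93.9 and 76.5 CPM in notochord-removed tail (0.61 ± 0.08), and mhc2a, a class II gene, was higher by 0.69 ± 0.09. epx and prtn3, genes of granulocyte enzymes, were higher by 0.65 ± 0.07 and 0.64 ± 0.09. A run of 5 genes on scaffold GL172646.1, next to a run of 2 that holds acod1, the itaconate-producing enzyme of activated macrophages (1.57 ± 0.15), has symbols for XB-GENE-5791624 alone (1.55 ± 0.12).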
